A study of Mus musculus with 16 samples.

Results

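Of the 16 liver RNA-Seq libraries in the series, 8 were compared here: the 4 libraries labelled KHK siRNA (HFD + siRNA) and the 4 labelled HFD control (HFD). All mice were male C57BL/6J, aged 6 weeks when the diets began, and both groups ate a high-fat diet (HFD) for 10 weeks, with treatment confined to the final 4. HFD mice received a control siRNA against luciferase at 10 mg/kg every 2 weeks, and HFD + siRNA mice received an siRNA against all transcripts of Khk at 20 mg/kg every 2 weeks. Mice of both groups were also gavaged with methylcellulose. The KHK siRNA carried N-acetylgalactosamine (GalNAc), a sugar bound by the asialoglycoprotein receptor of hepatocytes, so the knockdown was directed at hepatocytes within whole liver. The siRNAs differed in target and in dose, and the effects of these cannot be told apart here. Mice had been given saline or insulin into the inferior vena cava shortly before the livers were frozen, and which libraries came from insulin-injected mice is not given in the sources used here. The remaining 8 libraries served as reference levels: 4 from mice on a low-fat diet (LFD, called chow in the labels) and 4 from HFD mice treated with the KHK inhibitor PF-06835919 (HFD + Inhib), all given the luciferase siRNA.

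KHK phosphorylates fructose to fructose-1-phosphate, which is then split into triose units, one of them phosphorylated by triokinase, so that fructose carbon joins glycolysis below its main control point. In the liver this carbon feeds glycogen, lactate and de novo lipogenesis (DNL), and sugar phosphates are known to activate ChREBP, a transcription factor of glycolytic and lipogenic genes. SREBP1c, which responds to insulin, is the other main transcription factor of DNL. The comparison asked which transcripts differed in the livers of HFD-fed mice once the Khk transcript had been lowered.

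The HFD libraries held 24317111 to 35820234 expected counts assigned to genes, and the HFD + siRNA libraries held 28942052 to 33514313. Values are given as CPM, counts scaled to a common library size by trimmed mean of M values. Fold changes and adjusted p values are those of the quasi-likelihood test in edgeR, adjusted by the Benjamini-Hochberg method over all 18335 genes that passed the filter on low counts, of 50559 in the table. Standard errors (SE) were derived from that test, as the absolute log2 fold change divided by the square root of the F statistic. The labels number 4 libraries per group without tying each to its own mouse, so p values measure the spread between these libraries, some of which may be technical. In whole tissue, fewer cells of a type and less RNA per cell cannot be told apart.

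Khk, the targeted gene, was read at 251, 322, 233 and 251 CPM in the 4 HFD libraries. The 4 HFD + siRNA libraries read 11.8, 9.14, 18.1 and 11.5 CPM, all far below the lowest HFD library. The mean in HFD + siRNA was 4.79% of the HFD mean, a log2 fold change of -4.38 (SE 0.23, n = 4 libraries per group, adjusted p = 1.88e-08). LFD libraries averaged 266 ± 59.9 CPM (SD, n = 4) and HFD + Inhib libraries 119.7 ± 24.1 CPM. The HFD + siRNA level was below that of HFD + Inhib as well (log2 fold change -3.24, adjusted p = 4.42e-08).

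Across the transcriptome, 2154 of the 18335 genes differed at an adjusted p under 0.05, which is 11.7% of those tested. Of these, 953 were higher in HFD + siRNA (5.2% of genes tested) and 1201 were lower (6.55%). Most of the differences were modest: 185 genes were higher by at least 1 on the log2 scale and 221 lower by at least 1, and the median absolute log2 fold change of the called genes was 0.56. In 3770 genes, 20.6% of those tested, the 4 HFD and 4 HFD + siRNA libraries did not overlap. The number called fell to 1100 without HFD replicate 3, 1328 without HFD replicate 4, 1423 without HFD + siRNA replicate 1, 1391 without HFD + siRNA replicate 3 and 1162 without HFD + siRNA replicate 4.

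Fold changes were related to base composition across genes. With genes ordered by transcript GC content and cut into 5 equal bins, in the lowest bin 629 of 3221 genes were lower and 34 were higher, whereas in the highest bin 42 of 3221 were lower and 220 were higher. Spearman's rho between log2 fold change and GC content was 0.389 over 16104 genes, which share the same 8 libraries and are not independent replicates. After offsets for GC content and length, 1220 of the 2003 called genes with a GC value were still called in the same direction (60.9%). Where a call named below was lost after these offsets, the corrected value is given beside it, and where it was lost when 1 of the 8 libraries was left out, the number of such fits and the largest adjusted p among them are given.

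**Figure D1:**
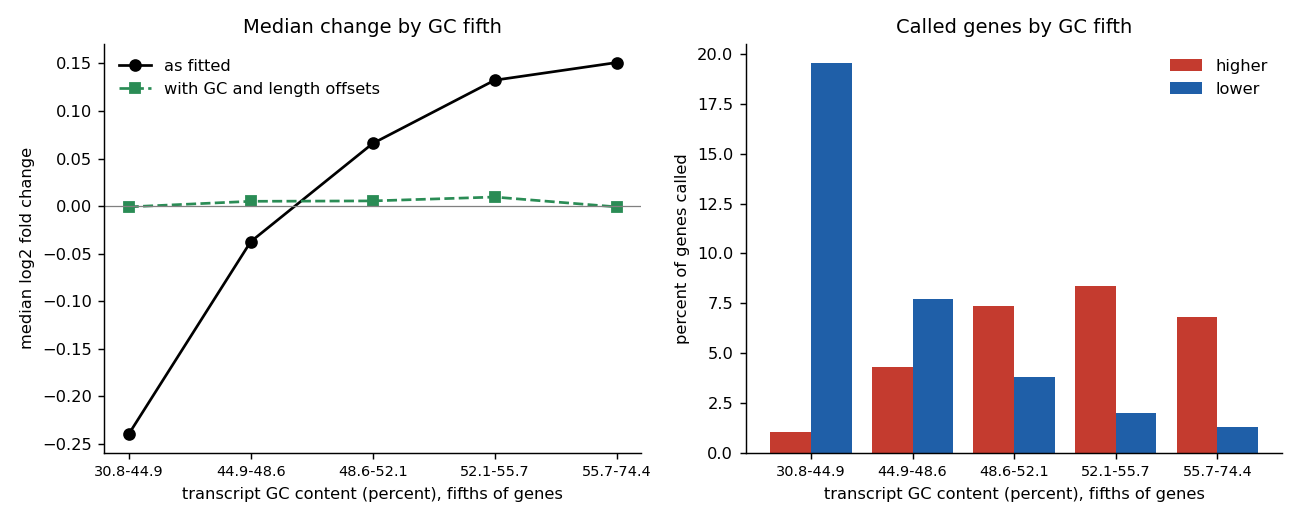
Left, median log2 fold change (HFD + siRNA over HFD) in 5 bins of genes ordered by transcript GC content, as fitted (circles) and after GC and length offsets (squares); right, percent of genes in each bin called higher (red) or lower (blue). The median rose from -0.24 in the lowest bin to 0.15 in the highest, and the corrected medians lay within 0.01 of 0.

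In fructose uptake and fructolysis, 1 of 13 genes rose and 2 fell, Khk included, beside 5.2% higher and 6.55% lower among all tested genes. The list's median log2 fold change was 0.11, against 0.02 over all tested genes. Without 1 library at a time 0 to 1 rose and 1 to 2 fell. Aldh3a2, an aldehyde dehydrogenase placed in this list for glyceraldehyde oxidation and also known as a PPARA target, was the member that rose, from 482 ± 52.1 to 648 ± 53.7 CPM (log2 fold change 0.43, adjusted p = 0.0338). The call for Aldh3a2 was lost in 7 of the 8 fits that left out 1 library, where the largest adjusted p was 0.108. Tkfc, triokinase, averaged 347 ± 92.8 CPM in HFD and 258 ± 19.7 CPM in HFD + siRNA (log2 fold change -0.43, adjusted p = 0.0897), and it passed the threshold with the GC and length offsets (adjusted p = 0.0363). Slc2a5, the fructose transporter GLUT5, and Sord, which makes fructose from sorbitol, had log2 fold changes of 0.11 (adjusted p = 0.874) and 0.11 (adjusted p = 0.521).

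Among 24 hexokinase and glycolysis genes, 0 rose and 3 fell (Gapdh, Pklr and Pfkfb2), beside 5.2% higher and 6.55% lower among all tested genes. With the GC and length offsets 6 were lower. At an unadjusted p under 0.05 by edgeR, 2 of the 24 were higher and 5 lower. Gapdh, glyceraldehyde-3-phosphate dehydrogenase and a common reference transcript in quantitative PCR, was read at 1002, 1196, 1238 and 1068 CPM in HFD. In HFD + siRNA it was read at 579.6, 630.5, 620.0 and 647 CPM, so that the highest treated library lay well below the lowest control. The log2 fold change was -0.86 (SE 0.10, adjusted p = 0.000118), and Gapdh was also lower than in LFD (-0.73, adjusted p = 0.000317) and in HFD + Inhib (-0.54, adjusted p = 0.000549). Pklr, the pyruvate kinase of liver and a classic ChREBP target, was read at 214, 350.5, 269 and 242 CPM in HFD and at 89.1, 124, 119 and 106 CPM in HFD + siRNA. Pklr fell by 1.29 on the log2 scale (SE 0.23, adjusted p = 0.00277), while HFD + Inhib averaged 70.8 ± 20.1 CPM, below HFD + siRNA (log2 fold change of HFD + siRNA over HFD + Inhib 0.63, adjusted p = 0.0424). Pfkfb2, which sets the level of fructose-2,6-bisphosphate, fell by 0.37 on the log2 scale (adjusted p = 0.014).

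Hk2, hexokinase 2, which can phosphorylate both glucose and fructose, was low throughout, at 3.84, 6.40, 3.57 and 4.14 CPM in HFD and 4.65, 3.17, 5.02 and 4.81 CPM in HFD + siRNA (log2 fold change -0.03, SE 0.23, adjusted p = 0.952). The libraries of the groups overlapped, and the sign changed when single libraries were left out.

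**Figure D2:**
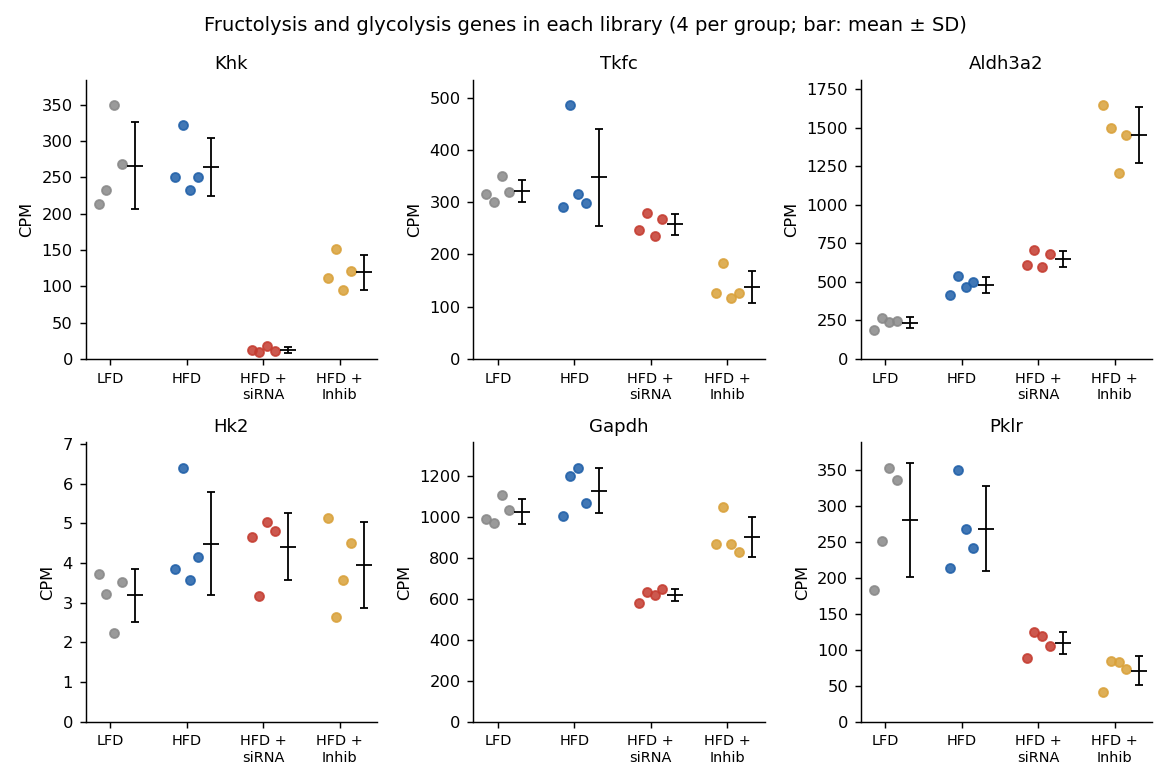
CPM of 3 fructolysis genes (top) and 3 genes of hexose phosphorylation and glycolysis (bottom) in each of the 16 libraries, 4 per group, with the group mean and SD as a black bar and all axes starting at 0. The HFD + siRNA libraries lie apart from the HFD libraries for Khk, Tkfc, Aldh3a2, Gapdh and Pklr, and among them for Hk2.

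In gluconeogenesis 1 of 15 genes rose and 0 fell: Gpt2, an alanine aminotransferase (log2 fold change 0.45, adjusted p = 0.0223, and 0.0593 with the GC and length offsets). Pck1 and G6pc, the enzymes that open and close the pathway, had log2 fold changes of 0.14 (adjusted p = 0.725) and 0.35 (adjusted p = 0.476), and the coactivator Ppargc1a one of -0.80 (adjusted p = 0.0616). In glycogen metabolism 1 of 17 genes fell and 0 rose, beside 6.55% lower and 5.2% higher among all tested genes. The gene that fell was Ugp2, which makes UDP-glucose, at 421 ± 38.6 CPM in HFD and 255 ± 41.1 CPM in HFD + siRNA (log2 fold change -0.72, adjusted p = 0.0268, and 0.215 with the GC and length offsets). Gys2 and Pygl, the liver glycogen synthase and phosphorylase, had log2 fold changes of -0.37 (adjusted p = 0.132) and -0.19 (adjusted p = 0.235), and Pgm1 one of 0.24 (adjusted p = 0.0858). The calls for Gpt2 and Ugp2 were lost in 6 and 4 of the 8 fits without 1 library, with adjusted p of up to 0.0772 and 0.0815.

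Of 20 genes listed under SREBP1 and DNL, 10 fell, 1 rose and 9 were not called, beside 6.55% lower and 5.2% higher among all tested genes. Log2 fold changes lay below 0 for 13 of the 20 and above 0 for 7, with a median of -0.72. Scd1, the desaturase that makes oleate, was read at 4915, 9687, 11596 and 8341 CPM in HFD and at 2718, 2282, 1630.2 and 1953 CPM in HFD + siRNA. It fell by 2.01 on the log2 scale (SE 0.27, adjusted p = 0.000432), to 24.9% of the HFD mean. Fasn, fatty acid synthase, was read at 1104, 2776, 1835 and 1066 CPM in HFD and at 405, 544, 602 and 566 CPM in HFD + siRNA (log2 fold change -1.68, SE 0.25, adjusted p = 0.00109). The spread among HFD libraries was wide, with replicate 2 highest for Fasn, Acaca, Acacb, Elovl6 and Me1, yet the lowest HFD library remained above the highest HFD + siRNA library for each of them. Without HFD replicate 2 the log2 fold change of Fasn was -1.34 (adjusted p = 0.00164), and 8 of the 20 genes were lower.

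The acetyl-CoA carboxylases, which supply malonyl-CoA, were both lower. Acaca, the cytosolic enzyme of DNL, was read at 221, 375, 277 and 237 CPM in HFD and at 111, 165, 119 and 121 CPM in HFD + siRNA (log2 fold change -1.10, SE 0.16, adjusted p = 0.000809). Acacb, the mitochondrial outer membrane enzyme whose malonyl-CoA restrains fatty acid import, was read at 77.5, 155, 96.5 and 87.2 CPM in HFD and at 25.9, 37.9, 35.0 and 29.7 CPM in HFD + siRNA (log2 fold change -1.70, SE 0.19, adjusted p = 8.49e-05). Both reference groups were well above these levels, with a mean Acacb level of 241 ± 23.7 CPM for LFD and 294 ± 37.7 CPM for HFD + Inhib.

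Elovl6, which lengthens palmitate, fell from 149 ± 59.5 to 47.2 ± 15.5 CPM (log2 fold change -1.66, adjusted p = 0.000977), and Me1, the cytosolic malic enzyme, from 266 ± 101 to 88.1 ± 20.1 CPM (log2 fold change -1.60, adjusted p = 0.0006). Elovl5, an elongase of polyunsaturated fatty acids, fell by 0.97 (adjusted p = 0.00264), and Insig1, which holds SREBPs in the endoplasmic reticulum and is itself an SREBP target, by 1.08 (adjusted p = 0.00152). Another elongase, Elovl3, was called higher (log2 fold change 1.97, adjusted p = 0.0144), though its groups overlapped and the call was lost in 2 of the 8 fits without 1 library (adjusted p up to 0.0560). Me1 was also the 1 gene of 11 that fell in the list of pentose phosphate pathway and NADPH genes, whose median log2 fold change was -0.07. Among all tested genes 6.55% were lower and 5.2% higher. In the pentose phosphate and NADPH list 1 gene, the folate enzyme Mthfd1, rose (log2 fold change 0.25, adjusted p = 0.0461, and 0.191 with the GC and length offsets), and its call was lost in each of the 8 fits without 1 library (adjusted p up to 0.131). Acly, which makes cytosolic acetyl-CoA, had a log2 fold change of -0.47 that did not pass (SE 0.23, adjusted p = 0.203). Srebf1 itself stood at 256 ± 28.0 CPM in HFD and 250.5 ± 73.7 CPM in HFD + siRNA (log2 fold change -0.03, SE 0.28, adjusted p = 0.955).

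Several DNL transcripts lay below their LFD level and not only below that of HFD. Against LFD, where 8.63% of all tested genes were called, 9 of the 20 genes were lower in HFD + siRNA and 3 were higher. Scd1 averaged 10569.5 ± 3710.1 CPM in LFD (log2 fold change of HFD + siRNA over LFD -2.30, adjusted p = 9.59e-05), Fasn 1129 ± 241 CPM (-1.09, adjusted p = 0.0125) and Acaca 257 ± 33.1 CPM (-0.99, adjusted p = 0.00125). Elovl5 was an exception, averaging 386 ± 35.8 CPM under LFD and 379.9 ± 29.0 CPM under HFD + siRNA (log2 fold change -0.02, adjusted p = 0.961). Against HFD + Inhib, where 33.8% of all tested genes were called, Scd1 was lower by 2.96 on the log2 scale (adjusted p = 1.41e-06) and Fasn by 1.59 (adjusted p = 0.000197). These comparisons share the HFD + siRNA libraries with the main one.

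**Figure D3:**
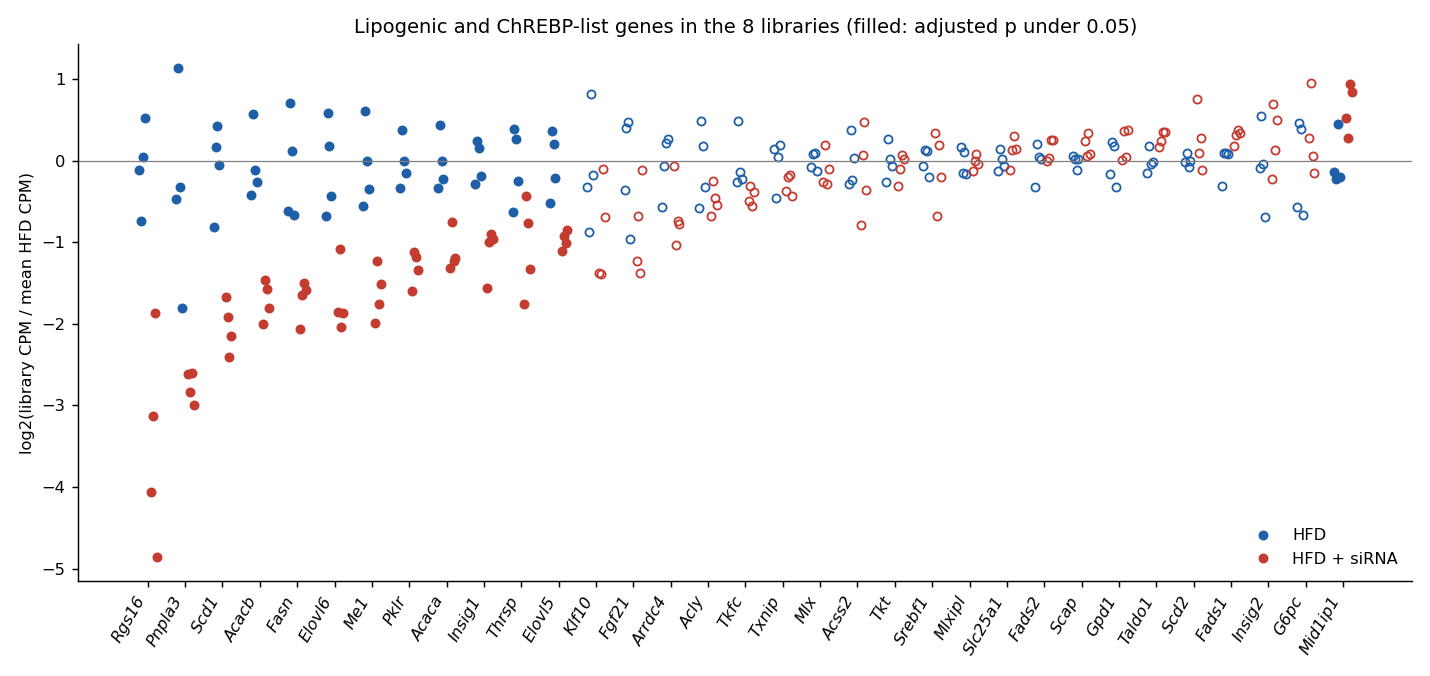
Log2 ratio of each library's CPM to the mean HFD CPM for the 33 genes of the SREBP1 and DNL list and the ChREBP list, ordered by fold change, with HFD libraries in blue and HFD + siRNA libraries in red. Filled points mark genes with an adjusted p under 0.05: 12 lie to the left, lower in HFD + siRNA, and Mid1ip1 lies to the right.

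Of 18 genes listed as ChREBP and its targets, 6 fell and 1 rose, beside 6.55% lower and 5.2% higher among all tested genes. The list's median log2 fold change was -0.52, and 3 of its genes fell without HFD replicate 3 or HFD + siRNA replicate 4. Acacb, Elovl6, Pnpla3, Thrsp and Mid1ip1 are in both lists, so these counts overlap with those of DNL, and the gene that rose is the same in each. Rgs16, a regulator of G-protein signaling that follows carbohydrate supply in liver, was read at 120.5, 78.2, 135 and 189 CPM in HFD and at 7.85, 14.97, 35.8 and 4.51 CPM in HFD + siRNA. It fell by 3.05 on the log2 scale (SE 0.82, adjusted p = 0.0245). The treated libraries spread widely, from replicate 4 at the bottom to replicate 3 at the top, and did not reach the lowest HFD library. Pnpla3, a lipase and acyltransferase of lipid droplets, was at 2.33 ± 1.93 CPM in HFD and 0.346 ± 0.0436 CPM in HFD + siRNA (log2 fold change -2.77, adjusted p = 0.0339), and Thrsp, a lipogenic regulator, fell by 0.98 (adjusted p = 0.0339). Calls for Rgs16, Pnpla3 and Thrsp were lost in 5, 6 and 5 of the 8 fits without 1 library, with adjusted p up to 0.0715, 0.12 and 0.101. Mid1ip1, an activator of acetyl-CoA carboxylase, rose (log2 fold change 0.67, adjusted p = 0.0438, and 0.284 with the GC and length offsets), a call lost in 6 of the 8 fits without 1 library (adjusted p up to 0.138). Mlxipl, which encodes ChREBP, had a log2 fold change of -0.02 (SE 0.12, adjusted p = 0.939), Txnip one of -0.29 (adjusted p = 0.566) and the hepatokine Fgf21 one of -0.76 (adjusted p = 0.302).

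Promoter windows of the 12 genes of these lists that fell were searched for letters bound by ChREBP and its partner, both strands, in RefSeq windows of GRCm38.p6 that reach from 250 bases before to 50 bases after the start site. Windows were matched for 11 of the 12 genes, and Scd1 was not matched. The carbohydrate response element, a pair of E-boxes spaced by 5 bases that reads the same on both strands and can include the E-box CACGTG, was in 1 of their 13 windows and in 15 of all 32851 windows (0.0457%). The E-box CACGTG was in 2 of the 13 windows (15.4%), in 9 of the 36 windows of all tested members of these lists (25%), in 9.05% of windows of tested genes and in 7.15% of all windows, so that it was no more frequent in the members that fell than in the lists as a whole. The sterol response element was in 0 of the 13, in 0 of the 36 and in 0.234% of all. The 3 windows with a match are shown, 5′ to 3′ on the plus strand, with the match in capitals. It begins 170 bases before the start site in Pklr (chr3:89136373-89136672), 101 bases before it in Insig1 (chr5:28071162-28071461) and 161 bases before it in Elovl5 (chr9:77917115-77917414). A match describes the letters in the window and not binding.
Pklr: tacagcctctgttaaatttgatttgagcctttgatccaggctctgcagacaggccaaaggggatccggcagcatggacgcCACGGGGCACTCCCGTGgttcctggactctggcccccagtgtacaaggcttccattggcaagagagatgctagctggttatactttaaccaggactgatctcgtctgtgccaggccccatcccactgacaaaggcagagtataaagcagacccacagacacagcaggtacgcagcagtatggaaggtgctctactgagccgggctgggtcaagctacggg
Insig1: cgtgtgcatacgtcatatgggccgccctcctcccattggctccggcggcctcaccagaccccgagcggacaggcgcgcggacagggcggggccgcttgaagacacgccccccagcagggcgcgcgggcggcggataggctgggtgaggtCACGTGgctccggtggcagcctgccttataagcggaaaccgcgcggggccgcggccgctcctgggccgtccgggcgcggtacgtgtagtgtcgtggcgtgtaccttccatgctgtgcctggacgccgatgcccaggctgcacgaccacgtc
Elovl5: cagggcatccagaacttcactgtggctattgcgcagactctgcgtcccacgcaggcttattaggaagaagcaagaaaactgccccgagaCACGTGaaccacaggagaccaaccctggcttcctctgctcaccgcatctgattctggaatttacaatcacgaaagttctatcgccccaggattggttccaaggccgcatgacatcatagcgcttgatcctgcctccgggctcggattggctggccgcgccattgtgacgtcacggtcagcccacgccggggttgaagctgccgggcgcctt

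Downstream of fatty acid synthesis, 5 of 22 genes of triglyceride synthesis and lipid droplets fell and 0 rose, with a median log2 fold change of 0.08. Among all tested genes 6.55% were lower and 5.2% higher. The number that fell in this list was 3 without HFD replicate 3 or HFD + siRNA replicate 1, 3 or 4. Lpgat1, a lysophospholipid acyltransferase, was read at 289.9, 318, 321 and 329 CPM in HFD and at 218, 223, 188 and 215 CPM in HFD + siRNA (log2 fold change -0.57, SE 0.08, adjusted p = 0.000526). Gpam, which adds the initial acyl chain to glycerol-3-phosphate, fell by 0.69 (SE 0.14, adjusted p = 0.00549), and Lpin1, a phosphatidate phosphatase, by 1.07 (SE 0.31, adjusted p = 0.0362), a call lost in 6 of the 8 fits without 1 library (adjusted p up to 0.107). Gk, glycerol kinase, fell from 173 ± 17.3 to 114 ± 5.05 CPM (log2 fold change -0.61, adjusted p = 0.000527), a call that was lost with the GC and length offsets (log2 fold change -0.19, adjusted p = 0.177). Cidec, a droplet fusion protein, stood at 3.94, 15.2, 6.87 and 4.85 CPM in HFD and 4.11, 2.91, 3.56 and 3.72 CPM in HFD + siRNA. These groups overlapped, and the call (adjusted p = 0.0499) was lost in 6 of the 8 fits without 1 library, with an adjusted p of up to 0.217. Plin2, the main coat protein of hepatocyte lipid droplets, averaged 387 ± 55.7 and 412 ± 37.7 CPM (log2 fold change 0.09, adjusted p = 0.745).

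In mitochondrial fatty acid oxidation 1 of 19 genes rose and 0 fell, beside 5.2% and 6.55% of all tested genes. The gene was the thiolase Acaa2 (log2 fold change 0.38, adjusted p = 0.0491, and 0.0789 with the GC and length offsets), whose call was lost in each of the 8 fits without 1 library (adjusted p up to 0.154). With the GC and length offsets 0 of the 19 were higher and 2 were lower, and DESeq2 called 3 higher and 1 lower. Cpt1a, which carries out the regulated step of fatty acid entry, averaged 516 ± 52.8 and 572 ± 39.4 CPM (log2 fold change 0.15, adjusted p = 0.382), and Etfb, an electron carrier subunit, had a log2 fold change of 0.32 just outside the threshold. Among 25 genes of peroxisomal oxidation and PPARA targets, 4 fell and 0 rose, beside 6.55% and 5.2% of all tested genes. The number that fell in this list was 1 without HFD replicate 3 or HFD + siRNA replicate 4. It was 2 without HFD replicate 4 or HFD + siRNA replicate 1. Ehhadh, the peroxisomal bifunctional enzyme, was read at 285, 236, 315 and 277 CPM in HFD and at 197, 189.9, 149 and 171 CPM in HFD + siRNA (log2 fold change -0.65, SE 0.14, adjusted p = 0.00842). Abcd2, a peroxisomal importer of very long-chain fatty acids, fell by 1.15 (adjusted p = 0.0195, and a log2 fold change of -0.94 with an adjusted p of 0.0776 with the GC and length offsets), Acot3, a thioesterase, by 1.44 (adjusted p = 0.0428) and Cyp4a31, an omega-hydroxylase with near-identical paralogs, by 0.73 (adjusted p = 0.0288). The calls for Abcd2, Acot3 and Cyp4a31 were lost in 3, 5 and 4 of the 8 fits without 1 library, with adjusted p of up to 0.0637, 0.133 and 0.11. For Acot3 the groups overlapped, and its call was also lost with a replicate block (adjusted p = 0.0694) and with the 8 libraries alone (0.0650). The nuclear receptor Ppara (log2 fold change -0.13, adjusted p = 0.56) and its target Cyp4a14 (-0.36, adjusted p = 0.527) did not pass. The contrast with HFD + Inhib was large for this list: Ehhadh averaged 6973 ± 1492 CPM there and 177 ± 21.2 CPM in HFD + siRNA (log2 fold change -5.30, adjusted p = 8.42e-12). In ketone body synthesis 0 of 7 genes were called by edgeR and by DESeq2, and 2 had an unadjusted p under 0.05 by edgeR, with log2 fold changes of -0.21 for Acat1 and -0.32 for Slc16a1.

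Of 24 genes of sphingolipid and ceramide synthesis, 3 fell and 1 rose, beside 6.55% lower and 5.2% higher among all tested genes, and the 3 that fell act at distinct steps. Kdsr, which reduces 3-ketodihydrosphingosine early in the pathway, was read at 30.6, 33.8, 34.0 and 30.9 CPM in HFD and at 21.1, 22.8, 22.3 and 20.7 CPM in HFD + siRNA (log2 fold change -0.57, SE 0.08, adjusted p = 0.000526). Cert1, which carries ceramide from the endoplasmic reticulum to the Golgi, was read at 59.1, 55.4, 62.0 and 62.4 CPM in HFD and at 45.0, 39.8, 38.1 and 36.1 CPM in HFD + siRNA (log2 fold change -0.59, SE 0.09, adjusted p = 0.00103). Ugcg, glucosylceramide synthase, fell from 29.4 ± 4.72 to 17.0 ± 1.19 CPM (log2 fold change -0.79, adjusted p = 0.00144). In each of these genes the HFD and HFD + siRNA libraries did not overlap, as in 20.6% of all tested genes. Degs1, the desaturase that completes ceramide, rose by 0.28 (adjusted p = 0.0268), and its call was lost in 6 of the 8 fits without 1 library, with an adjusted p of up to 0.109.

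In cholesterol synthesis and uptake 2 of 23 genes rose and 0 fell, beside 5.2% higher and 6.55% lower among all tested genes. Log2 fold changes in this list lay above 0 for 13 genes and below 0 for 10. Ebp, a sterol isomerase, rose from 121 ± 8.80 to 169.6 ± 10.1 CPM (log2 fold change 0.48, adjusted p = 0.00304), and Tm7sf2, a sterol reductase, by 0.65 (adjusted p = 0.00782). Sqle, squalene epoxidase, which responds to SREBP2, had a log2 fold change of 0.37 (adjusted p = 0.534). Among 16 genes of bile acid synthesis and transport, the side-chain oxidase Acox2 rose (log2 fold change 0.44, adjusted p = 0.00834) and the bile acid importer Slc10a1 fell (-0.59, adjusted p = 0.0342), a call lost in 6 of the 8 fits without 1 library (adjusted p up to 0.0954). With the GC and length offsets 4 of the 16 were higher and 1 lower. Cyp7a1, the rate-limiting enzyme, varied widely between libraries (0.10, SE 0.51, adjusted p = 0.926).

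Among 21 apolipoprotein and lipoprotein assembly genes, 3 rose and 2 fell, beside 5.2% higher and 6.55% lower among all tested genes. Without 1 library at a time 1 to 3 rose and 2 fell. Apoc2, the cofactor of lipoprotein lipase, was read at 186, 152, 192 and 168 CPM in HFD and at 322, 208, 288 and 261 CPM in HFD + siRNA (log2 fold change 0.63, SE 0.13, adjusted p = 0.00519), well above the 96.3 ± 10.3 CPM of LFD. Lcat and Apoc1 also rose (0.44 and 0.52, adjusted p = 0.0287 and 0.0251), but neither call held with the GC and length offsets (adjusted p = 0.0567 and 0.656), and they were lost in 6 and 3 of the 8 fits without 1 library (adjusted p up to 0.0833 and 0.0743). Mttp, which loads lipid onto apolipoprotein B, fell from 425 ± 36.4 to 296 ± 56.8 CPM (log2 fold change -0.52, adjusted p = 0.0152), and Apoa4 fell by 1.97 (adjusted p = 0.000118).

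**Figure D4:**
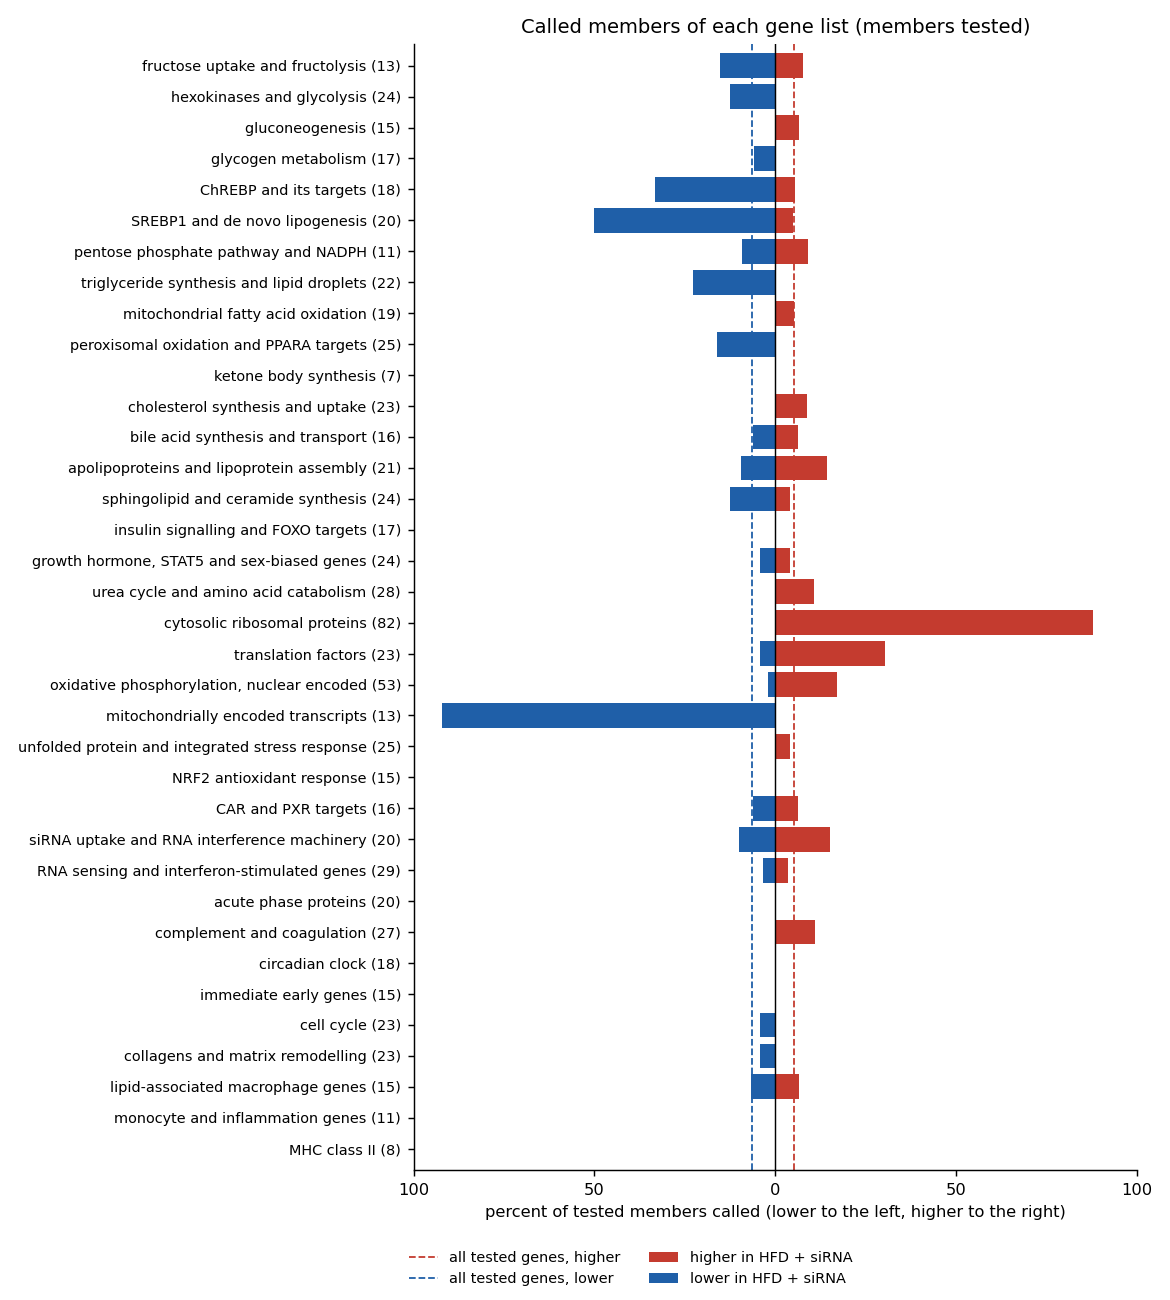
Percent of tested members of each list called higher (red, to the right) or lower (blue, to the left) in HFD + siRNA, with the number tested in parentheses. Dashed lines mark the same percentages over all 18335 tested genes, 5.2% higher and 6.55% lower. Bars reach far past those lines for lipogenic genes, ribosomal proteins and mitochondrially encoded transcripts.

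Amino acid genes held 3 increases and 0 decreases among 28, beside 5.2% higher and 6.55% lower among all tested genes. Cbs and Cth, the 2 enzymes that turn homocysteine into cysteine, both rose. Cbs was read at 281, 261, 283 and 256 CPM in HFD and at 592, 398, 418 and 466 CPM in HFD + siRNA (log2 fold change 0.79, SE 0.16, adjusted p = 0.00649), and Cth at 189, 147, 218 and 187 and at 451, 288, 360.4 and 291 CPM (log2 fold change 0.91, SE 0.20, adjusted p = 0.00846). Every HFD + siRNA library was above every HFD library for both genes. Hpd, a tyrosine catabolic enzyme, rose by 0.50 (adjusted p = 0.0347, and 0.134 with the GC and length offsets), a call lost in 6 of the 8 fits without 1 library (adjusted p up to 0.107).

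Most transcripts of cytosolic ribosomal proteins were higher. Of 82 cytosolic ribosomal protein genes 72 rose and 0 fell, beside 5.2% higher and 6.55% lower among all tested genes. The list's median log2 fold change was 0.54. With the GC and length offsets 61 were called higher, and 50 to 68 without 1 library at a time. The lowest value in the list was that of Rpl22l1 (0.08, adjusted p = 0.905), a variant of Rpl22. Rpl6 went from 111 ± 3.68 to 179 ± 19.9 CPM (log2 fold change 0.69, adjusted p = 0.00041) and Rps3 from 85.4 ± 9.98 to 142 ± 11.5 CPM (0.73, adjusted p = 0.000802). Against LFD, where 8.63% of all tested genes were called, 0 of the 82 genes were higher and 2 were lower. Ribosomal protein genes have many processed pseudogenes, so reads can be split between copies. Of 23 translation factors 7 were higher than in HFD and 1 was lower, beside 5.2% and 6.55% of all tested genes. Without HFD + siRNA replicate 2 the count was 3 higher and 4 lower, and without any other single library 4 to 5 were higher and 0 lower. Eif3h, a subunit of the initiation factor eIF3, was read at 45.4, 42.9, 48.7 and 45.0 CPM in HFD and at 61.3, 61.2, 63.0 and 61.3 CPM in HFD + siRNA (log2 fold change 0.44, SE 0.07, adjusted p = 0.00144), and Eef1g, an elongation factor subunit, rose by 0.44 (adjusted p = 0.00519).

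Of 53 nuclear-encoded genes of oxidative phosphorylation 9 rose and 1 fell, beside 5.2% higher and 6.55% lower among all tested genes. With the GC and length offsets 5 rose and 2 fell, and 4 to 5 rose without HFD replicate 2 or 3 or any 1 of the HFD + siRNA libraries. Of the 13 mitochondrially encoded mRNAs 12 fell and 0 rose, and 7 fell without HFD replicate 3. Ndufs8, a complex I subunit, rose from 39.4 ± 0.994 to 53.5 ± 1.68 CPM (log2 fold change 0.44, adjusted p = 0.00739). The nuclear gene that fell was Ndufs1, the largest complex I subunit, at 95.2, 105, 112 and 106 CPM in HFD and 65.9, 70.1, 64.8 and 61.7 CPM in HFD + siRNA (log2 fold change -0.67, SE 0.08, adjusted p = 0.000143). Ndufs1 was also lower than in LFD (-0.53, adjusted p = 0.000558) and in HFD + Inhib (-1.05, adjusted p = 1.31e-07). Of the mitochondrial mRNAs, ATP8, a small subunit of ATP synthase, was read at 788, 724, 1611 and 1194 CPM in HFD and at 98.4, 197, 109 and 156 CPM in HFD + siRNA (log2 fold change -2.95, SE 0.52, adjusted p = 0.00264). ND3, a complex I subunit, was read at 948, 636, 1305 and 1211 CPM in HFD and at 427, 434, 372 and 336 CPM in HFD + siRNA (-1.38, SE 0.23, adjusted p = 0.00204). With the GC and length offsets 6 of the 13 were lower and the median log2 fold change moved from -1.20 to -0.49. These transcripts are short and poor in G and C, and nuclear copies of mitochondrial genes can share their reads.

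Some measures of library make-up did not overlap between the groups either. The 13 mitochondrial mRNAs took 6.78%, 5.65%, 10.4% and 7.70% of the counts in HFD and 3.80%, 3.85%, 3.60% and 3.42% in HFD + siRNA, and the LFD mean was 3.59%. Small structured noncoding RNAs (small nuclear, small nucleolar, Cajal body, 7SL and RNase P RNAs and the like), a class added after the data had been examined, took 8.30%, 7.93%, 4.15% and 7.90% in HFD and 14.4%, 10.8%, 15.4% and 12.5% in HFD + siRNA. The groups did not overlap for either class. For the mitochondrial mRNAs the exact permutation test, two-sided, gave p = 0.0286, the smallest that 4 against 4 allows, and 0.0714 adjusted over the 20 measures of library make-up. The class added later was among those 20 measures, and its shares are given as a description, without a p value. Rn7s2, a 7SL RNA of the signal recognition particle, was the most abundant of the small RNAs, at 35893 ± 6586 CPM in HFD and 63514 ± 8668 CPM in HFD + siRNA. Alb, the albumin transcript, took 5.42% ± 0.516 of the counts in HFD and 5.27% ± 0.313 in HFD + siRNA (exact permutation test, two-sided, p = 0.6). With only the 13657 nuclear protein-coding genes kept, a setting chosen after the data had been seen, 1951 genes were called, 1762 of them called with all genes too. In that setting 74 of the 82 ribosomal protein genes were higher and 0 lower. The part of library make-up in the GC relation was not tested.

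**Figure D5:**
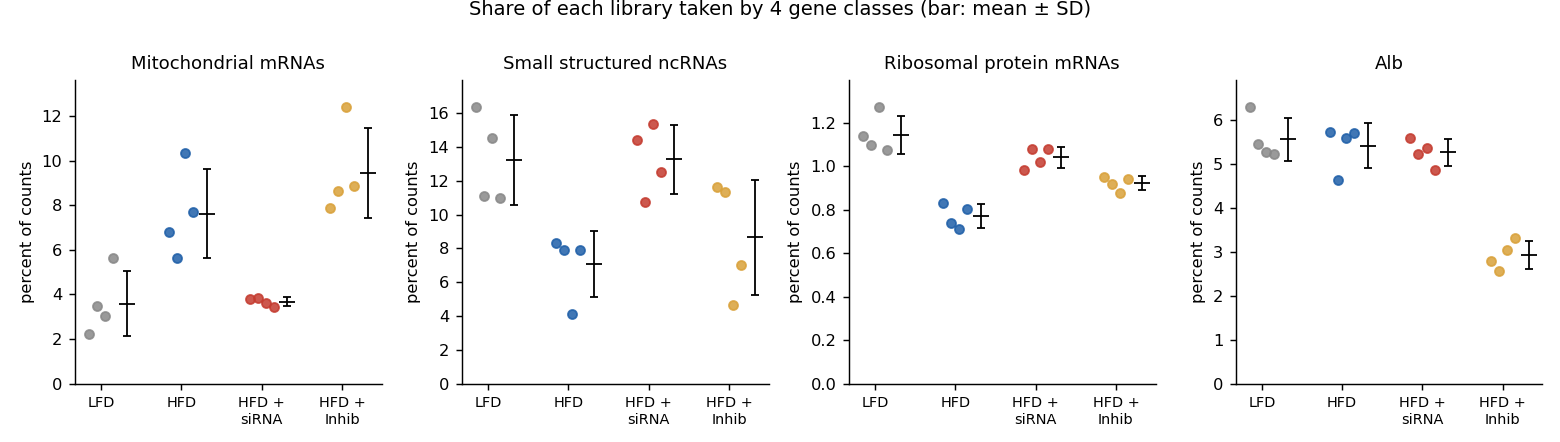
Percent of each library's counts taken by mitochondrial mRNAs, small structured noncoding RNAs (ncRNAs), ribosomal protein mRNAs and Alb in the 4 groups, with one point per library, the group mean and SD as a black bar, and axes starting at 0. HFD and HFD + siRNA libraries lie apart for the mitochondrial, small noncoding and ribosomal protein classes and overlap for Alb.

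Machinery that an siRNA meets in hepatocytes was measured next. Of 20 genes for siRNA uptake and RNA interference 3 rose and 2 fell, beside 5.2% higher and 6.55% lower among all tested genes. The list's median log2 fold change was 0.00. The number that rose was 2 without HFD replicate 3 and 1 without any other single library, and 1 with the GC and length offsets. Xpo5, which exports precursor miRNAs from the nucleus, was read at 20.9, 22.7, 19.2 and 18.4 CPM in HFD and at 13.2, 12.9, 11.9 and 14.1 CPM in HFD + siRNA (log2 fold change -0.64, SE 0.11, adjusted p = 0.00181). Tnrc6b, a partner of Argonaute proteins in silencing, fell from 135 ± 7.67 to 98.2 ± 5.59 CPM (log2 fold change -0.46, adjusted p = 0.00137), and both genes were also below their LFD and HFD + Inhib levels. Ago1 rose by 0.41 (adjusted p = 0.00391) and Drosha by 0.33 (adjusted p = 0.0382, and 0.213 with the GC and length offsets), the latter call being lost in 7 of the 8 fits without 1 library (adjusted p up to 0.151), while Ago2, the Argonaute that cuts target RNA, had a log2 fold change of -0.05 (adjusted p = 0.687). The asialoglycoprotein receptor genes Asgr1 and Asgr2 had log2 fold changes of 0.14 (adjusted p = 0.561) and 0.26 (adjusted p = 0.0494, and 0.379 with the GC and length offsets), and the call for Asgr2 was lost in each of the 8 fits without 1 library (adjusted p up to 0.156).

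RNA sensing and interferon-stimulated genes showed 1 increase and 1 decrease among 29. For this list and those that follow here, the shares over all tested genes were 5.2% higher and 6.55% lower. Irf3, a transcription factor activated by RNA sensors, rose from 28.4 ± 1.69 to 35.8 ± 1.11 CPM (log2 fold change 0.33, adjusted p = 0.0324, and 0.0666 with the GC and length offsets), and Cxcl10, an interferon-induced chemokine, fell from 5.38 ± 1.10 to 2.39 ± 0.548 CPM (-1.17, adjusted p = 0.00519). The call for Irf3 was lost in 7 of the 8 fits without 1 library (adjusted p up to 0.11). Irf7 and Isg15 had log2 fold changes of 0.19 (adjusted p = 0.526) and 0.60 (adjusted p = 0.145). Acute phase genes gave 0 calls of 20 by edgeR and by DESeq2, with 1 gene at an unadjusted p under 0.05 by edgeR and Saa1 at 0.27, Orm2 at 0.64 and Crp at -0.21 on the log2 scale. Fitting the 8 libraries alone called 1 acute phase gene higher. Complement and coagulation genes held 3 increases and 0 decreases of 27, beside 5.2% and 6.55% of all tested genes. Among the increases were C8a (0.53, adjusted p = 0.0223) and C3 (0.40, adjusted p = 0.0358, and 0.119 with the GC and length offsets). The number of increases was 0 without HFD replicate 3, HFD replicate 4 or HFD + siRNA replicate 4 and 1 without HFD + siRNA replicate 1, and the calls for C8a and C3 were lost in 5 and 6 of the 8 fits, with adjusted p of up to 0.0824 and 0.113. In the unfolded protein and integrated stress response 1 of 25 genes rose, the chaperone Calr (0.42, adjusted p = 0.0478, and 0.103 with the GC and length offsets), while Pdia4 was at 0.47 (adjusted p = 0.0506). The call for Calr was lost in 7 of the 8 fits without 1 library (adjusted p up to 0.165), whereas 5 genes of this list rose without HFD replicate 2 and 5 with a replicate block. NRF2 targets gave 0 calls of 15 by edgeR, 1 by DESeq2 and 1 at an unadjusted p under 0.05 by edgeR (Gstm3 -0.80, adjusted p = 0.0529, and Gsta2 0.80, adjusted p = 0.239). Of 16 CAR and PXR targets Cyp3a11, the main drug-metabolizing CYP3A of mouse liver, fell from 1191 ± 147 to 661 ± 88.4 CPM (-0.85, adjusted p = 0.0265, and 0.129 with the GC and length offsets), Ugt1a1 rose (0.50, adjusted p = 0.047), and Cyp2b10 was at 0.50 (adjusted p = 0.593). The calls for Cyp3a11 and Ugt1a1 were lost in 5 and 6 of the 8 fits without 1 library (adjusted p up to 0.0700 and 0.129), and that for Ugt1a1 also with RLE scaling (0.0506), with no filter (0.0570) and with a replicate block (0.0515).

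Insulin signalling and FOXO targets gave 0 calls of 17 by edgeR, 1 by DESeq2 and 3 at an unadjusted p under 0.05 by edgeR, with log2 fold changes of -0.16 for Insr, 0.25 for Irs1, 0.11 for Irs2, 0.28 for Igfbp1 and -0.30 for Enpp1. Immediate early genes, which respond within minutes to stimuli such as insulin, gave 0 of 15 by both tools and 1 at an unadjusted p under 0.05 by edgeR (Fos 0.56, Egr1 0.67, Egr2 -0.61, Klf6 -0.45), and circadian clock genes 0 of 18 by both tools and 3 unadjusted (Npas2 1.39). A fit of the 8 libraries alone called 1 immediate early gene and 1 clock gene, both lower in HFD + siRNA. In growth hormone, STAT5 and sex-biased genes 1 of 24 rose and 1, Acot3, fell, beside 5.2% higher and 6.55% lower among all tested genes. In this list 4 rose without HFD replicate 2. Elovl3, an elongase under circadian and hormonal control, rose from 72.5 ± 52.4 to 285 ± 167 CPM (log2 fold change 1.97, SE 0.47, adjusted p = 0.0144) with overlapping groups, and its call was lost without HFD replicate 3 (adjusted p = 0.0537) and without HFD + siRNA replicate 4 (adjusted p = 0.0560). Igf1 had a log2 fold change of -0.33 (adjusted p = 0.0822). Of 23 cell cycle genes 1 fell, the cyclin Ccne2 (-1.08, adjusted p = 0.0149), and Mki67 and Cdkn1a were at -0.48 (adjusted p = 0.274) and 1.71 (adjusted p = 0.0801).

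Markers of liver cell types were measured as a check on tissue make-up. For each list in this paragraph, the shares over all tested genes were 5.2% higher and 6.55% lower. The 8 hepatocyte markers took 8.12% ± 0.517 of the counts in HFD and 8.06% ± 0.484 in HFD + siRNA, with Alb the most abundant, and 1 of the 8, Serpina1a, rose (log2 fold change 0.51, adjusted p = 0.0071). These shares are of counts before TMM scaling. In the fit, log2 fold changes lay above 0 for all 8 hepatocyte and all 8 macrophage markers (medians 0.16 and 0.23). They lay above 0 for 6 of 7 stellate and 5 of 6 endothelial markers, and below 0 for 5 of 6 cholangiocyte and 5 of 6 lymphocyte markers. Macrophage and Kupffer cell markers, led by Clec4f, took 0.0270% and 0.0300%, stellate cell markers, led by Reln, 0.0349% and 0.0347%, and endothelial markers, led by Stab2, 0.0314% and 0.0330%, with 0 calls among their 8, 7 and 6 genes by edgeR and by DESeq2, and 1, 1 and 2 genes at an unadjusted p under 0.05 by edgeR. Fitting the 8 libraries alone called 1 endothelial marker lower. Cholangiocyte (led by Spp1), lymphocyte (Cd79a), neutrophil (S100a9) and red cell (Hbb-bs) markers gave 0 calls of 6, 6, 2 and 5 tested by both tools, and 1, 1, 0 and 0 at an unadjusted p under 0.05 by edgeR. Of the adipocyte markers, Adipoq, Plin1 and Lep were at 0 in 5, 5 and 7 of the 8 libraries, while Cfd was read in all 8, at up to 265 counts. Of the pancreas markers, Prss2 and Ins2 were at 0 in all 8 libraries and Cpa1 and Pnlip in 6 and 7, while Cela1 was read in all 8, at up to 910 counts. Cela1, an elastase gene listed under pancreas, rose (log2 fold change 0.65, adjusted p = 0.0256, and 0.0781 with the GC and length offsets), a call lost in 6 of the 8 fits without 1 library (adjusted p up to 0.0881), and Cfd was called higher without HFD replicate 2 but not with all libraries. Among lipid-associated macrophage genes Mmp12, a matrix protease, fell by 2.52 (adjusted p = 8.25e-05) and Ctsb, a lysosomal protease, rose by 0.37 (adjusted p = 0.0493, and 0.163 with the GC and length offsets), with 13 other genes not called, Trem2 at 0.77 and Spp1 at -0.35 among them. The call for Ctsb was lost in 7 of the 8 fits without 1 library (adjusted p up to 0.165). Mmp12 was also the 1 called gene of 23 for collagens and matrix remodelling (Col1a1 0.47, Mmp13 -1.04). Monocyte and inflammation genes gave 0 of 11 by both tools and 2 at an unadjusted p under 0.05 by edgeR (Ccl2 -1.04, adjusted p = 0.0731, and Ccr2 -0.76, adjusted p = 0.106) and MHC class II genes 0 of 8 by both tools and 0 unadjusted (H2-Aa -0.42, H2-Ob -0.61). Log2 fold changes of the monocyte and inflammation genes lay below 0 for 10 and above 0 for 1, with a median of -0.28. When the 8 libraries were fitted alone, 2 of these 11 genes were called lower.

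The 12 largest increases that met the naming rule included several genes outside the lists. Colec12, a scavenger receptor of the collectin family, was read at 13.6, 18.3, 16.3 and 15.1 CPM in HFD and at 45.0, 67.2, 44.0 and 54.9 CPM in HFD + siRNA (log2 fold change 1.73, SE 0.16, adjusted p = 3.06e-05). Susd4, a complement regulator, was read at 10.0, 20.1, 8.69 and 10.9 CPM in HFD and at 35.9, 61.6, 49.2 and 53.2 CPM in HFD + siRNA (1.999, SE 0.26, adjusted p = 0.000377), and Sspo, which encodes SCO-spondin, went from 1.50 ± 0.478 to 5.16 ± 1.06 CPM (1.77, adjusted p = 0.00146). Colec12, Susd4 and Sspo were higher in HFD + siRNA than in LFD (0.90, 1.14 and 1.24, adjusted p = 0.0021, 0.0108 and 0.00994) and than in HFD + Inhib (0.71, 1.25 and 1.33, adjusted p = 0.00224, 0.0014 and 0.00155). The glutathione transferase loci Gstp2 and Gstp-ps rose by 1.63 and 1.75 (adjusted p = 0.0142 and 0.019), but they share near-identical sequence with each other and with the functional Gstp genes, and their values are uncertain. The call for Gstp-ps was lost in 4 of the 8 fits without 1 library (adjusted p up to 0.0585).

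The other 7 of the largest increases were structured noncoding RNAs. Rpph1, the RNA of RNase P, was read at 739, 680.2, 729 and 838 CPM in HFD and at 2509, 2080.2, 2698 and 2296 CPM in HFD + siRNA (log2 fold change 1.68, SE 0.28, adjusted p = 0.00182). Rnu12, the U12 RNA of the minor spliceosome, rose from 5.60 ± 2.20 to 28.0 ± 6.41 CPM (2.33, adjusted p = 0.0138, and 0.0902 with the GC and length offsets). Scarna3a (2.81, adjusted p = 0.00317), Snora70 (2.50, adjusted p = 0.0364, and 0.0703 with the GC and length offsets), Snora68 (2.45, adjusted p = 0.0163), Snord3b4 (2.35, adjusted p = 0.0432) and Snord3a (2.09, adjusted p = 0.0183) guide or process other RNAs, and the last pair are copies of one RNA between which reads can be split. The calls for Snora70, Snord3b4 and Snord3a were lost in 6, 7 and 2 of the 8 fits without 1 library (adjusted p up to 0.101, 0.141 and 0.0634). Of 140 tested RNAs in the class of small structured noncoding RNAs, which was drawn from RefSeq gene types and leaves out Snord3a and Snord3b4, 41 were higher and 5 lower, beside 5.2% and 6.55% of all tested genes. Without 1 library at a time 12 to 34 were higher and 1 to 4 lower, with the fewest increases without HFD replicate 3 (12), HFD + siRNA replicate 2 (17), HFD replicate 1 (22) and HFD + siRNA replicate 4 (24). A replicate block gave 62 higher and 7 lower, and 14 of the 98 with a GC value were higher with the GC and length offsets.

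Beyond Khk, Rgs16, Scd1, ATP8 and Apoa4, the 12 largest decreases were TrnS1, Pls1, H2-Q1, Znf41-ps, Zfp820, Zfp991 and Ugt1a8. Pls1, plastin 1, an actin-bundling protein, was read at 9.25, 16.4, 8.61 and 6.76 CPM in HFD and at 0.854, 0.619, 2.76 and 0.791 CPM in HFD + siRNA (log2 fold change -3.04, SE 0.59, adjusted p = 0.00421), close to the 0.875 ± 0.725 CPM of LFD. H2-Q1, a nonclassical MHC class I gene with close paralogs, fell from 40.2 ± 3.73 to 10.2 ± 4.80 CPM (-1.98, adjusted p = 0.00144). TrnS1, a mitochondrial serine tRNA, went from 9.93 ± 4.43 to 0.555 ± 0.116 CPM (-4.15, adjusted p = 0.0069). The zinc finger loci Znf41-ps (-1.96, adjusted p = 0.0031), Zfp820 (-1.86, adjusted p = 0.0124) and Zfp991 (-1.79, adjusted p = 0.00304) belong to repeated families, and Ugt1a8 (-1.79, adjusted p = 0.0393, and 0.0586 with the GC and length offsets) shares exons with its neighbors, so these 4 values are uncertain. The call for Ugt1a8 was lost in 6 of the 8 fits without 1 library (adjusted p up to 0.113).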

How the data were processed

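The authors deposited expected counts per gene, estimated by RSEM after alignment with STAR to mm39 per the submitters' processing notes, for 16 liver libraries in a single table of 50559 genes. Versions, gene annotation and strand setting are not given in the sources used here. The study's methods name a targeted panel for RNA-Seq, whereas the deposited values are expected counts, 15.1% of them not whole. All columns were matched to samples by label, 0 columns were left unused, and no within-group pair of libraries was a duplicate.

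Counts were rounded and scaled by TMM, genes were filtered by filterByExpr (minimum count 10, minimum total 15), and all 4 groups were fitted together by edgeR 4.0.16 in R 4.3.3, with quasi-likelihood tests of HFD + siRNA minus HFD and Benjamini-Hochberg adjustment over 18335 genes. DESeq2 1.42.0 was an alternative. On data simulated from the mean levels and depths of these libraries (18335 genes), edgeR called 83 of 100 genes changed by 1 on the log2 scale, 100 of 100 changed by 2, and 9 unchanged genes. The simulation gave all genes the same spread, had no GC trend and changed only genes with a mean above 1 CPM. Spread differed between genes in the libraries themselves, and fold changes were related to GC content, so these rates need not hold for them. GC content and length came from GENCODE mouse transcripts and covered 87.8% of tested genes. Library make-up was compared by an exact permutation test in scipy 1.17.1.

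The comparison and the 46 gene lists were chosen with earlier results of these data known, symbols of mitochondrial genes and Tf were matched to the file after it was opened, and the list of small structured RNAs was added after seeing values. Genes were named by rule: Khk, the 12 largest increases and 12 largest decreases (adjusted p under 0.05, mean log2 CPM of at least 1, no overlap, an informative symbol), and in each list the 2 members of smallest p and preset members. Insig1, Elovl5, Pnpla3, Thrsp, Mid1ip1, Gpam, Lpin1, Ugcg, Degs1, Pfkfb2, Ago1, Drosha, Hpd, Lcat, Apoc1, Mttp, Cyp4a31, Rpl22l1, Serpina1a and Rn7s2 were named after their values were seen. Several other genes that met the rule are not reported here.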

Additional observations from a re-analysis of the deposited data

Results flagged for a closer look

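In groups of 4 libraries, 22 of 338 groups held a library that stood apart from the other three by Dixon's test at the 95% level, where chance gives about 1 in 20. Each value is the CPM of that library unless given as a percentage of counts. HFD replicate 2 was highest for Sqle (96.5) and Tkfc (486) and for adipocyte markers (0.000840%), and lowest for Alb (4.65%). HFD replicate 3 was highest for Cyp4a31 (11.5) and Mid1ip1 (44.6) and lowest for Asgr1 (196) and for small structured noncoding RNAs (4.15%). HFD replicate 4 was highest for Sord (1194).

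HFD + siRNA replicate 1 was highest for Cyp4a14 (201) and Gsta2 (48.1) and lowest for pancreas markers (0.00168%). HFD + siRNA replicate 2 was highest for Ago1 (42.7), Elovl6 (70.2), Snord3b4 (112) and mitochondrial rRNAs (0.0453%) and lowest for Irf7 (13.3). HFD + siRNA replicate 3 was highest for Cxcl10 (3.21), Eif3h (63.0) and Pls1 (2.76) and lowest for Ndufs8 (51.0). HFD + siRNA replicate 4 was lowest for Irs2 (29.0).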

How the results depend on the processing

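Khk was lower in every setting run. The number of genes called moved to 689 at an adjusted p under 0.01 and to 1261 when genes also had to differ by 0.5 or more on the log2 scale. Leaving out 1 library at a time gave 1100 to 1981 genes, with 446 to 775 higher and 650 to 1325 lower, and 102 to 145 list members called against 168. DESeq2 called 2726 genes (2117 of them shared), RLE scaling 2145, no filter 1627, at least 10 counts in every library 2220, the 8 libraries alone 2604 and the GC and length offsets 1694 (1220 shared). Replicate numbers did not pair the samples (correlations of same-numbered libraries 0.03, 0.07, 0.05 and -0.13), and a replicate block gave 2080 genes, or 1774 together with the offsets. Nuclear protein-coding genes alone, chosen after seeing the data, gave 1951. Of the 92 named genes called, 36 lost the call in at least 1 of the 8 fits without a library.

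The sign turned with the GC and length offsets for Crp (0.11, and 0.10 with the block), Plin2 (-0.0258 and -0.0191) and Slc2a5 (-0.0381), and with offsets and block for Pck1 (-0.00752). None of these was called, and the cause was not tested. Without 1 library, log2 fold changes ran from -0.17 to 0.41 for Cyp7a1, -0.12 to 0.20 for Hk2, -0.16 to 0.46 for Igfbp1, -0.0255 to 0.26 for Irs2, -0.0854 to 0.0415 for Mlxipl, -0.00669 to 0.28 for Pck1, -0.13 to 0.19 for Rpl22l1, -0.21 to 0.46 for Saa1, -0.11 to 0.40 for Slc2a5 and -0.20 to 0.11 for Srebf1. Over 149 genes and all settings, 2155 of 2499 values kept direction and side of the threshold, 283 lost the call, 36 gained one and 25 changed sign. At these depths a gene changed by 1 on the log2 scale can be missed, so a gene that was not called is not shown to be equal.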
